A study of Mus musculus with 8 samples.

Results

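The genes described here are 33 genes of cholesterol synthesis and sterol regulation, looked up by symbol in the deposited expression table of N134 cells. N134 is an established mouse line of C57BL/6 background, derived from a tumor of pancreatic beta cells, which the submitters use as a model of pancreatic neuroendocrine tumors. All 33 symbols were found among the 23309 genes of the table, and 32 of them passed a level filter (at least 1 FPKM in 4 or more libraries of the 8). FPKM is the number of fragments of a transcript scaled to its length and to the size of the library. Hmgcs1, the synthase that makes HMG-CoA, was listed at 0 in all 8 libraries, on a locus that the table places on an unplaced piece of chromosome 13 (chr13_random:114709-132325, mm9). That row was not tested and is not read as absence of the transcript.

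The libraries form 2 groups of 4. The miR-431 group, libraries 5 to 8, was made from N134 cells that overexpress microRNA-431 with a GFP marker. The miR-LacZ group, libraries 1 to 4, was made from N134 cells with a GFP construct for a LacZ control in the same format. Both groups therefore carry a GFP construct and share the same cell line, and the comparison is miR-431 against miR-LacZ. Whether each library had a culture of its own is not given in the labels, so the p-values reflect only how these libraries differ among themselves, which may be technical spread.

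Cells make cholesterol from acetyl-CoA through mevalonate, farnesyl diphosphate, squalene and lanosterol. The rate of the pathway is set largely by SREBP2, the product of Srebf2, a transcription factor held in the endoplasmic reticulum together with its escort SCAP. When sterols are low, SCAP carries SREBP2 to the Golgi, where it is cut and released to the nucleus. When sterols are high, the INSIG proteins retain SCAP. SREBP1, from Srebf1, acts mainly on fatty acid synthesis, and the LXR receptors, from Nr1h2 and Nr1h3, sense oxysterols and raise genes of sterol efflux. In pancreatic beta cells sterol content is known to affect the membranes from which insulin granules are released.

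The FPKM of a library summed to between 521889 and 625005, and 11603 to 11790 genes per library stood at 1 FPKM or more. FPKM keeps no read counts, so the depth behind each value is unknown. Mir431 was listed at 18114, 32890, 37768 and 27269 FPKM in miR-431 libraries 5 to 8, and at 0 in all 4 miR-LacZ libraries. Beta cell markers were present throughout, with the 13 markers summing to between 21692 and 34453 FPKM in miR-431 libraries, against 26256 to 42271 FPKM in miR-LacZ libraries. The sum rests mainly on Ins2 and Iapp and does not show the single genes. Of these, 4 fell (30.8%, against 13.8% of all tested genes) and 1 rose (7.69%, against 15.4%). Ins1 fell to 389 ± 126 FPKM in miR-431 cells, against 3332 ± 1405 FPKM in miR-LacZ libraries, a log2 difference of −3.07 (limma adjusted p = 0.000148), and Pdx1, Nkx6-1 and Pcsk2 were also called lower. The call of Pdx1 was lost without miR-LacZ 2 or miR-431 5, and that of Pcsk2 without miR-431 6 or 8 (limma adjusted p from 0.0551 to 0.0645). The 7 neuroendocrine markers summed to between 4589.8 and 7182.5 FPKM in miR-431 libraries, against 5110.0 to 7426 FPKM in miR-LacZ libraries, and of these 3 rose, Chgb most (1.18, limma adjusted p = 0.0132), and 2 fell, Scg2 most (−0.91, limma adjusted p = 0.00534). The 10 hepatocyte markers summed to between 2.87 and 3.57 FPKM in miR-431 libraries, against 12.5 to 25.98 FPKM in miR-LacZ libraries, with Cyp7a1 at 0 in all 8. Exocrine acinar markers (8 genes) summed to between 0.262 and 0.597 FPKM in miR-431 libraries, against 1.13 to 3.22 FPKM in miR-LacZ libraries, with Amy2a5 and Ptf1a at 0 in all 8. The 7 fibroblast markers summed to between 0.715 and 1.06 FPKM in miR-431 libraries, against 1.94 to 3.20 FPKM in miR-LacZ libraries, with Col3a1 at 0 in all 8. The 6 endothelial markers summed to between 1.47 and 2.92 FPKM in miR-431 libraries, against 0.621 to 0.822 FPKM in miR-LacZ libraries. The 5 adipocyte markers summed to between 0.0931 and 0.483 FPKM in miR-431 libraries, against 0.261 to 0.330 FPKM in miR-LacZ libraries. The part of these marker levels in the results was not tested, and in bulk RNA fewer cells of a type cannot be told apart from less RNA per cell.

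The sequences bearing on the comparison are those of the overexpressed microRNA and its matches in these genes. A microRNA recognises 3′ untranslated regions mainly through its seed, bases 2 to 8, which is written here in capitals. RefSeq lists 2 mature strands, miR-431-5p at chr12:109590459-109590479 and miR-431-3p at chr12:109590502-109590523, both on the plus strand of GRCm38.p6. The table's Mir431 row does not show which strand was made.
mmu-miR-431-5p: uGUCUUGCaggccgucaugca
mmu-miR-431-3p: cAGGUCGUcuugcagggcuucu

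Matches were searched for the 5p strand only, and those of the 3p strand were not analysed here. A match to the whole 5p seed (GCAAGAC), with or without the A that makes an 8mer (GCAAGACA), was present in the 3′ untranslated region of 5 of the 33 genes. That is 15.2% of them, against 755 of the 10750 tested genes with an annotated 3′ untranslated region in GENCODE M21 (7.02%). Cyp51, Scd1 and Srebf2 held a match without the final A, and Hsd17b7 and Npc1 held an 8mer. The matches of 4 of them are shown with their flanks, the match in capitals, and are located at chr5:4082152-4082158 (minus strand) for Cyp51, chr1:169952197-169952204 (minus strand) for Hsd17b7, chr19:44394657-44394663 (minus strand) for Scd1 and chr15:82204043-82204049 (plus strand) for Srebf2 in GRCm38.
Cyp51: aggctacggaGCAAGACtaacacactcc
Hsd17b7: gctagagatgGCAAGACAtttttatcat
Scd1: cagtcaaagtGCAAGACtacctacccac
Srebf2: gaggatgaagGCAAGACtgattgttctg
None of the 5 genes was called lower in miR-431 cells, and Srebf2 was called higher. Across all tested genes 13.8% were called lower and 15.4% higher, so calls of 5 genes cannot show whether the matches act. A match is a description of the letters and does not show a site in use.

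Promoter windows of 300 bases (250 before the start of the gene to 50 after it, RefSeq, GRCm38.p6) were at hand for 26 of the 33 genes. The classical sterol regulatory element was searched as TCACNCCAC, and the binding sequence of NF-Y, a factor that acts beside SREBP on many sterol genes, as CCAAT, both on either strand. The sterol element was found in 1 of the 26 genes (3.85%), Hmgcs1, against 388 of the 27025 genes with a window (1.44%). Without its last base (TCACNCCA, a form chosen after the sequences were seen) it was found in 2 of the 26 (7.69%), Hmgcs1 and Srebf2, against 4.97% of all genes. CCAAT was found in 20 of the 26 genes (76.9%), against 11096 of all genes (41.1%). The absence of these letters from a window says nothing of the factor. The windows of the called genes that held CCAAT are shown, with each motif in capitals (ATTGG is CCAAT on the other strand). Whether the motif bears on the levels of these genes was not tested. They are located at chr8:122443373-122443672 (minus strand) for Mvd, chr13:8885356-8885655 (plus strand) for Idi1, chr19:6067801-6068100 (minus strand) for Tm7sf2 and chr15:82147019-82147318 (plus strand) for Srebf2.
Mvd: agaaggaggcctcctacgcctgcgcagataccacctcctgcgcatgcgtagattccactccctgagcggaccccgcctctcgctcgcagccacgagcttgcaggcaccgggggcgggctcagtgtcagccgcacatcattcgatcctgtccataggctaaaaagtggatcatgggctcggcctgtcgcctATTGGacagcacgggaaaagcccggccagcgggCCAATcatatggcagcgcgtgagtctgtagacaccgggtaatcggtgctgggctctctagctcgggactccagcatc
Idi1: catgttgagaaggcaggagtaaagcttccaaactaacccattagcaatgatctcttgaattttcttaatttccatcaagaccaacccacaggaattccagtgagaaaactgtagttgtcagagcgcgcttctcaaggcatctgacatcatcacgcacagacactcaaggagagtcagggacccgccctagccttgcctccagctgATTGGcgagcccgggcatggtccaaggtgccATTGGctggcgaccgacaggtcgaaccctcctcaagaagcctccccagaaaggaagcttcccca
Tm7sf2: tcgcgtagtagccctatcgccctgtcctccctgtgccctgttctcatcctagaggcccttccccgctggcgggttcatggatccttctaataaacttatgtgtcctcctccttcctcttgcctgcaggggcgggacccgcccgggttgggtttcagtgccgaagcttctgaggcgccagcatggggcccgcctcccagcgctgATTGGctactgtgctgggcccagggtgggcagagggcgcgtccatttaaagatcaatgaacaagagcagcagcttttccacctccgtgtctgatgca
Srebf2: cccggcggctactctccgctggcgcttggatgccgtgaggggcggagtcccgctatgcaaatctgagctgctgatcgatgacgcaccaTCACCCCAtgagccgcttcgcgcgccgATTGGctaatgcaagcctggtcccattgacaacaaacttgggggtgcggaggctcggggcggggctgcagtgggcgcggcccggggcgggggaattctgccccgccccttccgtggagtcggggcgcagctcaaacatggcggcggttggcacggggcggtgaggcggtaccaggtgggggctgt
Read along the gene, the motif began 60 and 27 bases before the start of Mvd, 45 and 14 bases before that of Idi1, 47 bases before that of Tm7sf2 and 135 bases before that of Srebf2. The shortened sterol element of Srebf2 began 162 bases before its start, ahead of its CCAAT. Neither motif was found in the 2 windows of Scap, the other called gene.

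Of the 32 genes tested, 5 rose in miR-431 cells and 0 fell, with limma on log2(FPKM + 1) and a Benjamini-Hochberg adjusted p below 0.05 over all 11807 tested genes. The 5 were Mvd, Idi1, Tm7sf2, Srebf2 and Scap, and the other 27 did not pass. At an unadjusted p below 0.05, limma gave 6 higher (the 5 and Pmvk) and 1 lower (Insig2), and across all tested genes 21.3% higher and 20.4% lower. Across all tested genes, 29.3% were called, with 15.4% of all tested genes higher and 13.8% lower in miR-431 cells. The share of sterol genes called higher, 15.6%, was therefore near that of all genes, while 0% were called lower. Before any threshold, 26 of the 32 differences were above 0 (81.2%), against 49.3% of all tested genes. The median log2 difference over the 32 genes was 0.19, with a range of −0.27 to 1.01, against −0.0053 over all tested genes. The groups did not overlap for 4 of the 32 genes, Idi1, Tm7sf2, Srebf2 and Scap, while 31.1% of all tested genes had groups that did not overlap. Without miR-LacZ 4 the median over the 32 genes was 0.033, and without miR-LacZ 2 it was 0.31. The number called higher was 3 (Scap, Srebf2 and Tm7sf2) without miR-431 6 and without miR-LacZ 3 or 4, and was at most 6 in the fits that left out 1 library.

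**Figure D1:**
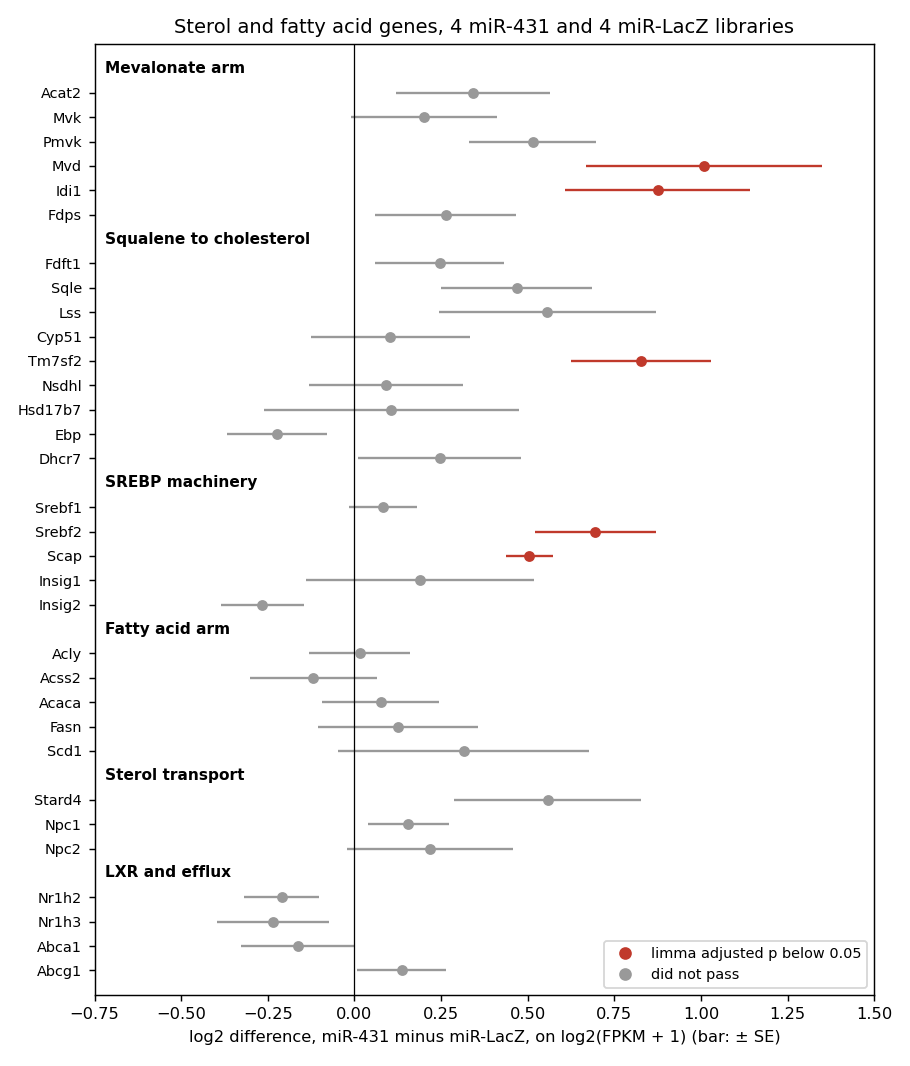
Log2 difference of each of the 32 tested sterol and fatty acid genes, miR-431 minus miR-LacZ, on log2(FPKM + 1), grouped by role. Points are limma estimates and bars ± SE, with 4 libraries a group, and red marks an adjusted p below 0.05. The 5 red points lie between 0.51 and 1.01, and 26 of the 32 points lie right of 0.

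The 7 genes of the mevalonate arm turn acetyl-CoA into farnesyl diphosphate. Of the 6 tested, 2 rose, Mvd and Idi1 (33.3%, against 15.4% of all tested genes), and 0 fell (against 13.8%). All 6 differences were above 0, against 49.3% of all tested genes, with a median of 0.43 on the log2 scale. With the neighbouring genes' median removed, as described below, neither Mvd nor Idi1 passed. Mvd, the decarboxylase that makes isopentenyl diphosphate (chr8:124957495-124967322, mm9), stood at 76.6, 106, 58.0 and 60.5 FPKM in miR-431 libraries 5 to 8, against 49.2, 61.9, 29.6 and 18.1 FPKM in miR-LacZ libraries 1 to 4. The groups overlapped, since miR-LacZ 2 lay above miR-431 7 and 8, and miR-LacZ 4 was the lowest of the 8. Its means were 75.3 ± 22.0 FPKM in miR-431 cells and 39.7 ± 19.6 FPKM in miR-LacZ libraries (SD, n = 4 each), giving a log2 difference of 1.01 (SE 0.340, limma adjusted p = 0.0484). The exact two-sided permutation p over the 8 libraries was 0.0857 for Mvd, where the smallest that 4 against 4 allows is 0.0286. The call of Mvd was the least steady of the 5. It was lost without miR-LacZ 3 or 4 or without any 1 of the 4 miR-431 libraries (limma adjusted p from 0.0579 to 0.126).

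Idi1, the isomerase that converts isopentenyl to dimethylallyl diphosphate (chr13:8884851-8891642, mm9), stood at 146, 155, 100.3 and 106 FPKM in miR-431 libraries 5 to 8, against 97.7, 91.4, 56.1 and 41.1 FPKM in miR-LacZ libraries 1 to 4. The groups did not overlap, but miR-431 7 was only slightly above miR-LacZ 1, and miR-LacZ 3 and 4 were well below the other 6 libraries. The log2 difference of Idi1 was 0.87 (SE 0.266, limma adjusted p = 0.0330, exact permutation p = 0.0286), from means of 127 ± 27.6 FPKM in miR-431 cells and 71.6 ± 27.4 FPKM in miR-LacZ libraries. That call was lost when miR-LacZ 3 or 4, or miR-431 5 or 6, was left out (limma adjusted p from 0.0581 to 0.0888).

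Pmvk, the phosphomevalonate kinase upstream of Mvd, came closest to a call among the rest. It averaged 71.5 ± 15.0 FPKM in miR-431 cells and 49.99 ± 11.6 FPKM in miR-LacZ libraries, with a log2 difference of 0.51 (SE 0.182, limma adjusted p = 0.0580). It passed without miR-LacZ 2 or without miR-431 5. Fdps, the farnesyl diphosphate synthase and the most abundant gene of the arm per length, averaged 485 ± 68.8 FPKM in miR-431 cells and 414 ± 117 FPKM in miR-LacZ libraries, a log2 difference of 0.26 (limma adjusted p = 0.358). Acat2, the thiolase of the first step, averaged 70.8 ± 13.6 FPKM in miR-431 cells and 57.2 ± 18.2 FPKM in miR-LacZ libraries, with a limma adjusted p of 0.272. Mvk, the mevalonate kinase, averaged 45.3 ± 11.4 FPKM in miR-431 cells and 39.7 ± 11.7 FPKM in miR-LacZ libraries, with a limma adjusted p of 0.507. For Fdps, Acat2 and Mvk the group difference was not separable from the spread between libraries. That of Pmvk passed at an unadjusted limma p below 0.05 but not after adjustment.

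**Figure D2:**
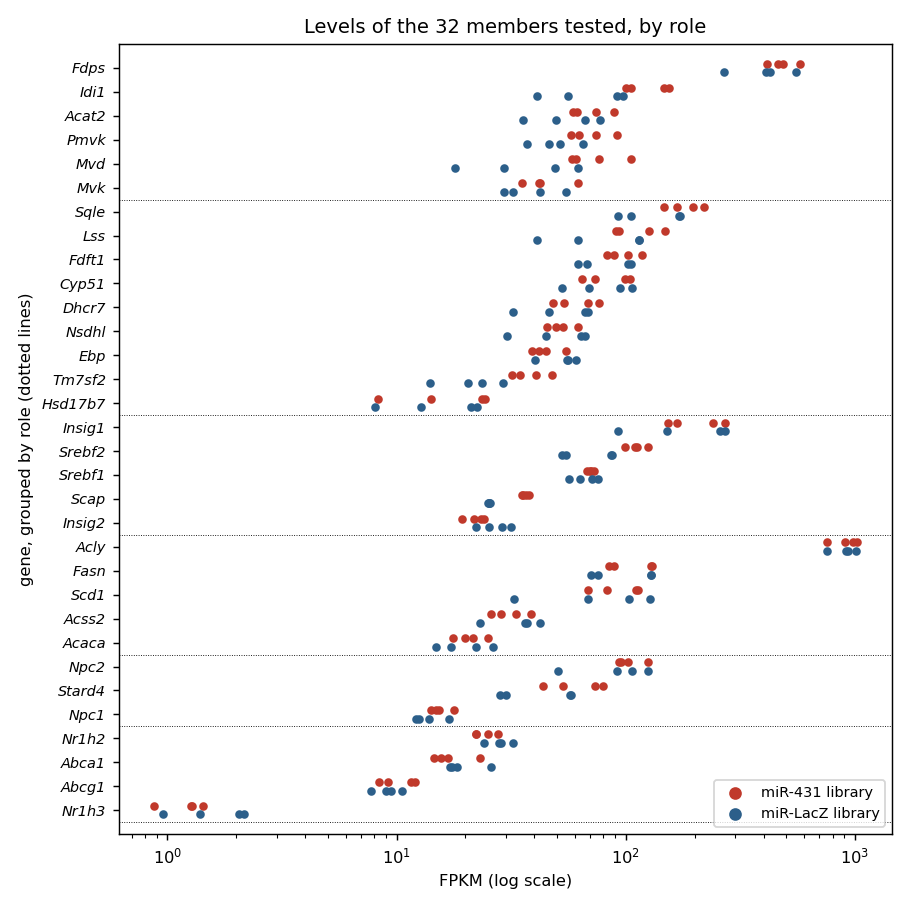
FPKM on a log axis for the 32 tested genes, in groups by role from the mevalonate arm at the top to LXR and efflux at the bottom. Each point is 1 library, with miR-431 in red above miR-LacZ in blue. Levels run from 0.873 FPKM for Nr1h3 to 1025 FPKM for Acly, and the colours overlap for all but Idi1, Tm7sf2, Srebf2 and Scap.

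Of the 9 genes that take farnesyl diphosphate through squalene and lanosterol to cholesterol, 1 rose, Tm7sf2, and 0 fell. The share that rose was 11.1%, against 15.4% of all tested genes, and 13.8% of all tested genes fell. The differences of 8 of the 9 were above 0 (88.9%, against 49.3% of all tested genes), with a median of 0.25 on the log2 scale. Tm7sf2, a sterol reductase of the endoplasmic reticulum that acts after Cyp51, stood at 31.996, 47.8, 40.5 and 34.6 FPKM in miR-431 libraries 5 to 8, against 23.6, 29.2, 20.6 and 13.98 FPKM in miR-LacZ libraries 1 to 4. There was no overlap, with miR-431 6 highest and miR-LacZ 4 lowest. The log2 difference of Tm7sf2 was 0.83 (SE 0.202, limma adjusted p = 0.0129, exact permutation p = 0.0286), from means of 38.7 ± 7.01 FPKM in miR-431 cells and 21.8 ± 6.33 FPKM in miR-LacZ libraries. Its locus in the table (chr19:6062820-6077187, mm9) overlaps that of Vps51, so reads of the 2 genes could be shared. Vps51 itself averaged 27.4 ± 1.51 FPKM in miR-431 cells and 27.2 ± 1.34 FPKM in miR-LacZ libraries, a log2 difference of 0.0071 (limma adjusted p = 0.954).

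The enzymes on either side of Tm7sf2 did not pass. Lss, the lanosterol synthase, averaged 115 ± 27.8 FPKM in miR-431 cells and 82.9 ± 37.2 FPKM in miR-LacZ libraries, a log2 difference of 0.56 (limma adjusted p = 0.208). Sqle, the squalene epoxidase and a rate-limiting enzyme of the pathway, averaged 182 ± 31.7 FPKM in miR-431 cells and 135 ± 42.6 FPKM in miR-LacZ libraries, a log2 difference of 0.47 (limma adjusted p = 0.132). Fdft1, the squalene synthase, and Dhcr7, a reductase of the last steps, both had a log2 difference of 0.25, with limma adjusted p-values of 0.347 and 0.460. The locus of Fdft1 overlaps that of Ctsb in the table, and that of Lss overlaps 4930483K19Rik. Cyp51, the lanosterol demethylase, had a log2 difference of 0.10. Hsd17b7 and Nsdhl, which act together in sterol demethylation, had log2 differences of 0.11 and 0.09. Ebp, the sterol isomerase, was the 1 synthesis gene with a difference below 0, at 45.2 ± 6.92 FPKM in miR-431 cells and 53.0 ± 8.90 FPKM in miR-LacZ libraries (−0.22, limma adjusted p = 0.272).

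Of the 5 genes of the SREBP machinery, 2 rose, Srebf2 and Scap (40%, against 15.4% of all tested genes), and 0 fell (against 13.8%). Srebf2, the gene of SREBP2 (chr15:81977698-82035390, mm9), stood at 109.6, 125, 112 and 99.4 FPKM in miR-431 libraries 5 to 8, against 85.9, 87.3, 55.0 and 52.9 FPKM in miR-LacZ libraries 1 to 4. All miR-431 libraries lay above all miR-LacZ libraries, of which 1 and 2 were higher and 3 and 4 lower. The log2 difference of Srebf2 was 0.70 (SE 0.174, limma adjusted p = 0.0145, exact permutation p = 0.0286), from means of 112 ± 10.6 FPKM in miR-431 cells and 70.3 ± 18.9 FPKM in miR-LacZ libraries. Mir33, whose locus lies within that of Srebf2, was listed at 0 in all 8 libraries.

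Scap, the escort that senses sterols and moves SREBP to the Golgi (chr9:110235796-110287450, mm9), stood at 35.4, 37.7, 35.7 and 36.6 FPKM in miR-431 libraries 5 to 8, against 25.2, 25.4, 25.0 and 25.6 FPKM in miR-LacZ libraries 1 to 4. Each group was tight and the groups were far apart. Scap averaged 36.3 ± 1.04 FPKM in miR-431 cells and 25.3 ± 0.265 FPKM in miR-LacZ libraries, a log2 difference of 0.51 (SE 0.0683, limma adjusted p = 0.000582, exact permutation p = 0.0286). Unlike the other called genes, Scap held a near constant level in the 4 miR-LacZ libraries.

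The partners of SCAP and SREBP2 did not pass. Insig1, the retention factor that is itself a target of SREBP, averaged 208 ± 56.7 FPKM in miR-431 cells and 193 ± 86.1 FPKM in miR-LacZ libraries, a log2 difference of 0.19 (SE 0.328, limma adjusted p = 0.698). Insig2, the other retention factor, averaged 22.2 ± 2.20 FPKM in miR-431 cells and 27.0 ± 4.10 FPKM in miR-LacZ libraries, a log2 difference of −0.27 (limma adjusted p = 0.119). Srebf1, whose locus overlaps that of Rai1 in the table, averaged 70.2 ± 1.93 FPKM in miR-431 cells and 66.7 ± 8.27 FPKM in miR-LacZ libraries, a log2 difference of 0.08 (SE 0.0984, limma adjusted p = 0.566).

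**Figure D3:**
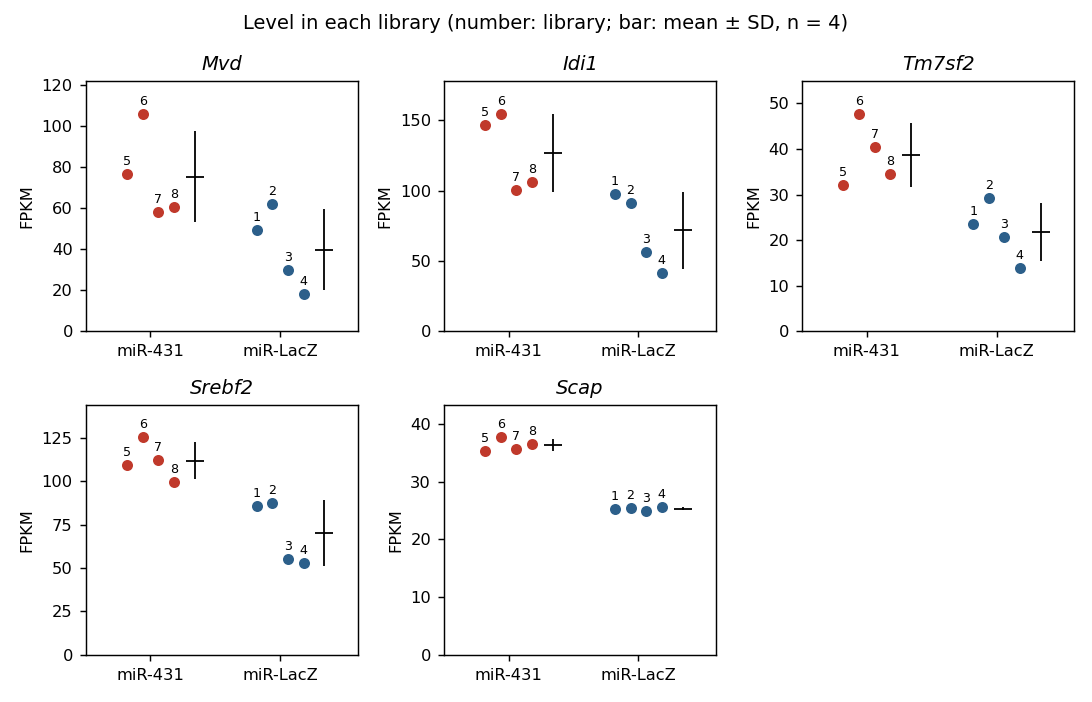
FPKM in each library for the 5 called genes, with miR-431 left of miR-LacZ. Points carry the library number, bars are mean ± SD (n = 4). Scap is flat within each group, while miR-LacZ 3 and 4 lie below miR-LacZ 1 and 2 for Mvd, Idi1, Tm7sf2 and Srebf2.

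The 5 genes of the fatty acid arm, targets mainly of SREBP1, gave 0 calls with limma (0 at an unadjusted p below 0.05) and a median log2 difference of 0.076. Across all tested genes 29.3% were called, and at an unadjusted limma p below 0.05, 21.3% were higher and 20.4% lower. Acly, the ATP citrate lyase that supplies acetyl-CoA, was the most abundant of all 32 tested genes per length and nearly equal between groups, at 916 ± 120 FPKM in miR-431 cells and 905 ± 107 FPKM in miR-LacZ libraries (limma adjusted p = 0.950). Fasn, the fatty acid synthase, averaged 108 ± 24.6 FPKM in miR-431 cells and 101 ± 32.3 FPKM in miR-LacZ libraries, and Acaca, the acetyl-CoA carboxylase, 21.0 ± 3.12 FPKM in miR-431 cells and 20.2 ± 5.08 FPKM in miR-LacZ libraries. Scd1, a stearoyl-CoA desaturase, was the most variable of the arm, at 94.0 ± 21.7 FPKM in miR-431 cells and 83.1 ± 41.6 FPKM in miR-LacZ libraries, a log2 difference of 0.32 (SE 0.363, limma adjusted p = 0.545). Acss2, an acetyl-CoA synthetase, averaged 31.6 ± 5.59 FPKM in miR-431 cells and 34.8 ± 8.23 FPKM in miR-LacZ libraries, a log2 difference of −0.12 (limma adjusted p = 0.662). Its locus overlaps that of 4930471I20Rik in the table.

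None of the 3 sterol transport genes passed in limma (against 29.3% of all tested genes). At an unadjusted p below 0.05, 0 did, against 21.3% of all tested genes higher and 20.4% lower. Stard4, which moves sterols between membranes, averaged 62.4 ± 16.7 FPKM in miR-431 cells and 43.2 ± 16.3 FPKM in miR-LacZ libraries, a log2 difference of 0.56 (limma adjusted p = 0.146). Npc1 and Npc2 pass cholesterol out of the lysosome. Npc1 averaged 15.5 ± 1.58 FPKM in miR-431 cells and 13.9 ± 2.21 FPKM in miR-LacZ libraries (limma adjusted p = 0.337), and its locus overlaps that of 3110002H16Rik. Npc2 averaged 104 ± 14.5 FPKM in miR-431 cells and 93.6 ± 31.9 FPKM in miR-LacZ libraries (limma adjusted p = 0.526).

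The 4 genes of LXR signalling and efflux had a median log2 difference of −0.19, and none passed in limma (against 29.3% of all tested genes). The count at an unadjusted p below 0.05 was also 0, against 21.3% of all tested genes higher and 20.4% lower. Nr1h2, the widely expressed LXR receptor, averaged 24.3 ± 2.62 FPKM in miR-431 cells and 28.2 ± 3.32 FPKM in miR-LacZ libraries, a log2 difference of −0.21 (limma adjusted p = 0.172). Nr1h3, the other LXR receptor, lay close to the level filter, at 1.21 ± 0.239 FPKM in miR-431 cells and 1.64 ± 0.566 FPKM in miR-LacZ libraries (limma adjusted p = 0.302). The efflux pumps stood apart in sign without passing. Abca1 averaged 17.5 ± 3.85 FPKM in miR-431 cells and 19.7 ± 4.13 FPKM in miR-LacZ libraries (−0.16, limma adjusted p = 0.482). Abcg1 averaged 10.3 ± 1.75 FPKM in miR-431 cells and 9.23 ± 1.18 FPKM in miR-LacZ libraries (0.14, limma adjusted p = 0.456).

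Taken by their median, the synthesis genes varied from library to library within each group. For each of the 15 tested synthesis genes the deviation of every library from the gene's mean over the 8 libraries was taken on log2(FPKM + 1). The median deviation was 0.25, 0.52, 0.00033 and −0.053 in miR-431 libraries 5 to 8, and 0.18, 0.27, −0.35 and −0.72 in miR-LacZ libraries 1 to 4. On this median, libraries 5 and 6 were above 7 and 8 among miR-431, and 1 and 2 above 3 and 4 among miR-LacZ, and the ranges of the groups overlapped. The order did not hold for each gene, since miR-431 5 was the lowest miR-431 library for Pmvk, Fdps and Tm7sf2. In miR-431 libraries 5 to 8 the median was 0.13, 0.60, 0.11 and 0.14 for the mevalonate arm. It was 0.29, 0.46, −0.021 and −0.11 for the genes from squalene to cholesterol. The median deviation over all tested genes stayed between −0.012 and 0.010 in every library. The 75th percentile of FPKM was also nearly equal in every library, at 14.47 to 14.74. Values on such a common scale leave a median over all genes little room to move. In miR-431 6, 0 of the 15 genes lay below their own mean, against 15 of 15 in miR-LacZ 4 and 14 of 15 in miR-LacZ 3. MiR-431 6 held the highest value of the 8 libraries for 12 of the 15 genes (80%), where it did so for 7.28% of all tested genes. MiR-LacZ 4 held the lowest for 13 of the 15 (86.7%), where it did so for 22.1% of all tested genes. These shares describe the libraries and were given no test.

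**Figure D4:**
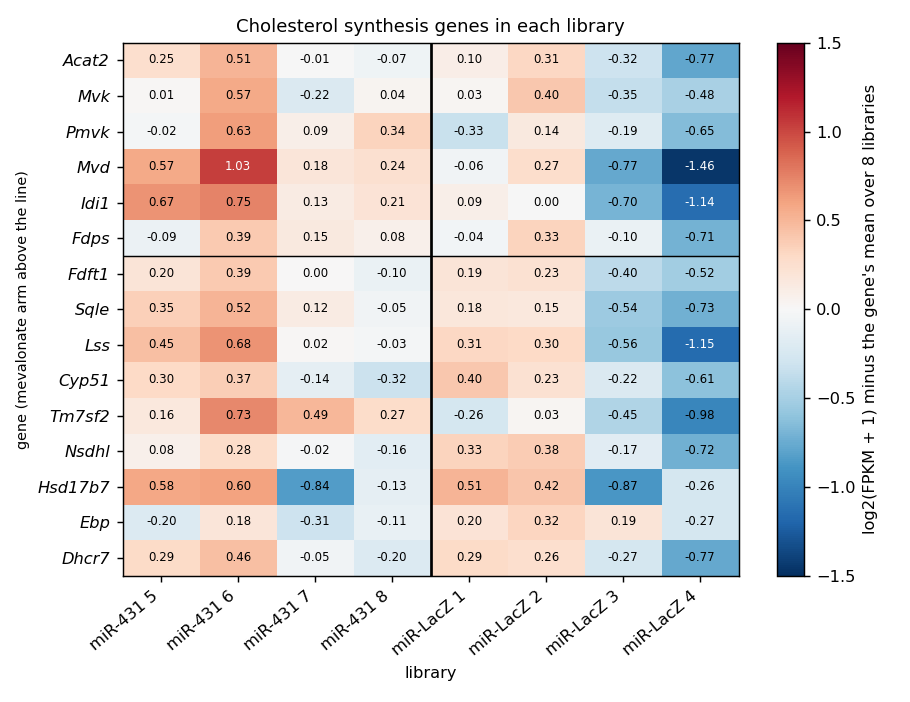
Heat map of the 15 tested synthesis genes in each library, as log2(FPKM + 1) minus the gene's mean over the 8 libraries, with miR-431 libraries left of the line and miR-LacZ libraries right of it. The column of miR-431 6 has no value below 0, and that of miR-LacZ 4 no value above 0.

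The spread within groups was accordingly wide for these genes. The median within-group SD on log2(FPKM + 1) was 0.387 for the 15 synthesis genes and 0.343 for all 32 genes, against 0.166 over all tested genes. The fatty acid arm varied in the same direction, with medians of 0.29, 0.24, −0.022 and −0.20 in miR-431 libraries 5 to 8, and 0.35, 0.32, −0.25 and −0.48 in miR-LacZ libraries 1 to 4. The LXR and efflux genes did not follow that order, with medians of 0.11, −0.22, 0.0035 and −0.12 in miR-431 libraries 5 to 8, and 0.063, −0.18, 0.21 and −0.080 in miR-LacZ libraries 1 to 4. Insig1 showed the pattern plainly, at 239.8, 271, 168 and 153 FPKM in miR-431 libraries 5 to 8, against 271, 259, 151 and 92.6 FPKM in miR-LacZ libraries 1 to 4. All 4 miR-431 values of Insig1 lay within the range of the miR-LacZ values. What set these levels was not tested.

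Libraries miR-431 5 and miR-LacZ 1 also stood apart from the other 6 in the steps of their lowest values, though the labels name no batch. Among genes below 0.1 FPKM, the ratio between 2 libraries took its commonest value (within 0.02 on the log2 scale) for 19.9% to 24.7% of genes in pairs among the other 6 libraries. That share was 3.24% to 3.91% in pairs of either library with those 6, and 14.2% in the pair of 5 and 1. Within that pair, miR-431 5 minus miR-LacZ 1 was 0.63 for Mvd, 0.58 for Idi1, 0.42 for Tm7sf2, 0.35 for Srebf2 and 0.47 for Scap on log2(FPKM + 1), with 1 library a side and no test. Within the other 6, the log2 differences were 1.14 for Mvd, 0.97 for Idi1, 0.96 for Tm7sf2, 0.81 for Srebf2 and 0.52 for Scap. The call of Mvd was lost there (limma adjusted p = 0.0918), while Idi1 (0.0482), Tm7sf2 (0.0285), Srebf2 (0.0243) and Scap (0.00411) passed.

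Stretches of chromosome differed between the groups as a whole, so each gene was also set against its neighbours. In each library a running median over 31 tested genes along the chromosome, the gene itself among them, was removed before the fit. It was taken over the deviations of these genes from their own means over the 8 libraries. The neighbours' own difference was 0.53 around Mvd, 0.42 around Idi1, 0.25 around Scap and 0.23 around Srebf2 on the log2 scale, and −0.15 around Tm7sf2. With the neighbours removed, Tm7sf2 stood at 0.97 (limma adjusted p = 0.00766) and Scap at 0.25 (limma adjusted p = 0.0305), and both passed. Mvd stood at 0.47 (limma adjusted p = 0.292), Idi1 at 0.46 (limma adjusted p = 0.156) and Srebf2 at 0.47 (limma adjusted p = 0.0526), and these 3 did not pass. The number of sterol genes called higher was then 2 of 32, and their median log2 difference was 0.24. Whether the neighbourhood contributes to the differences of these genes was not tested.

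**Figure D5:**
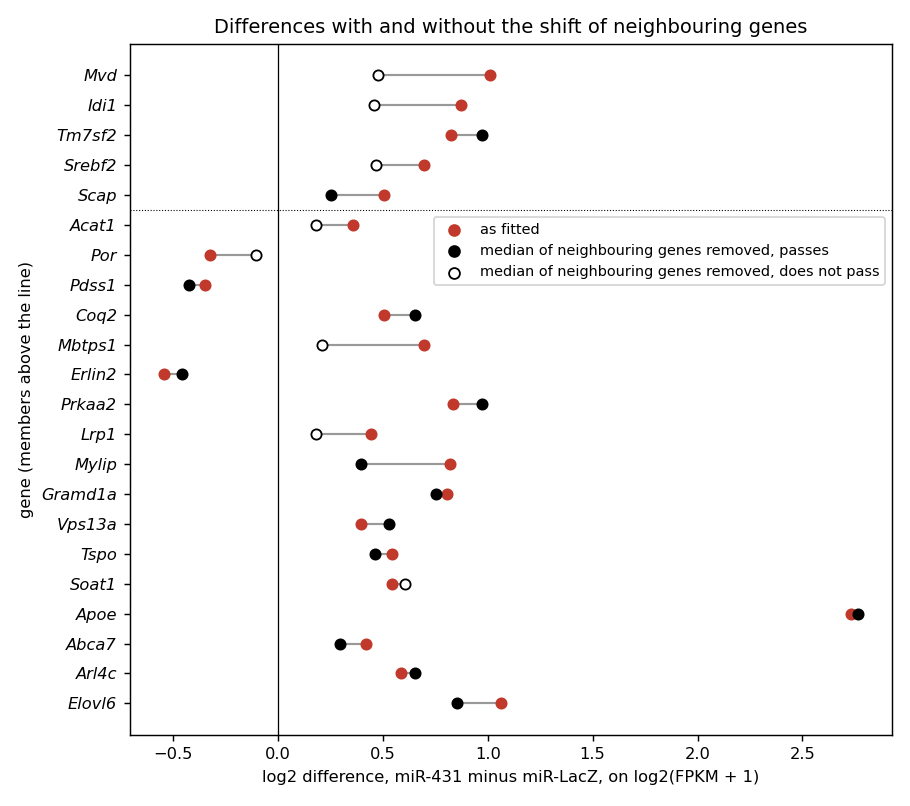
Log2 difference, miR-431 minus miR-LacZ, for the 5 called genes above the line and other named pathway genes under it. Red points are as fitted. Black or open points have the running median of 31 tested genes, the gene itself among them, removed in each library. Black points passed and open points did not. Mvd, Idi1 and Srebf2 move to open points between 0.46 and 0.47, Tm7sf2 and Scap stay filled, and Apoe stays near 2.8.

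The rest of the pathway was read from a list of 86 further genes of sterol and lipid metabolism, of which 76 were tested. Of these 18 rose in miR-431 cells (23.7%, against 15.4% of all tested genes) and 4 fell (5.26%, against 13.8%), with a median log2 difference of 0.083. The remaining enzymes of the synthesis pathway itself gave 1 rise and 1 fall among 8 tested. Acat1, the mitochondrial thiolase, rose to 95.4 ± 11.4 FPKM in miR-431, against 73.8 ± 4.61 FPKM in miR-LacZ libraries (0.36, limma adjusted p = 0.0243). Leaving out miR-LacZ 1, miR-431 6 or miR-431 8 ended its call (limma adjusted p from 0.0502 to 0.0780) and with the neighbours removed (0.18, limma adjusted p = 0.263). Por, the reductase that passes electrons to Cyp51 and Sqle, fell to 86.9 ± 3.52 FPKM in miR-431, against 109 ± 3.65 FPKM in miR-LacZ libraries (−0.32, limma adjusted p = 0.0112). With the neighbours removed it stood at −0.10 (limma adjusted p = 0.426).

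Lipoprotein uptake gave 4 rises among 8 tested genes in limma (50%, against 15.4% of all tested genes) and 0 falls (against 13.8%). With the neighbours removed, 2 of the 8 were called higher and 0 lower. Of the 11807 tested genes, 1230 were then higher and 1032 lower. At an unadjusted p below 0.05, limma also gave 0 lower, against 20.4% of all tested genes. Mylip, a ubiquitin ligase that degrades lipoprotein receptors and is a target of LXR, was among those that rose. It stood at 14.4, 12.4, 12.3 and 12.4 FPKM in miR-431 libraries 5 to 8, against 7.41, 6.62, 6.44 and 6.89 FPKM in miR-LacZ libraries 1 to 4. The groups were far apart relative to their spread, with a log2 difference of 0.82 (SE 0.0851, limma adjusted p = 0.000139, exact permutation p = 0.0286). With the neighbours removed the difference was 0.40 (limma adjusted p = 0.00721). Lrp1, a large endocytic receptor, rose to 2.77 ± 0.312 FPKM in miR-431, against 1.77 ± 0.287 FPKM in miR-LacZ libraries (0.45, limma adjusted p = 0.0119). With the neighbours removed Lrp1 stood at 0.18 (limma adjusted p = 0.355), and without libraries 1 and 5 its limma adjusted p was 0.0568.

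Control of SREBP and of the related ChREBP was described by 15 tested genes. It gave 3 rises (20%, against 15.4% of all tested genes) and 2 falls (13.3%, against 13.8%). Mbtps1, the protease that makes the first cut of SREBP in the Golgi, stood at 57.4, 65.5, 62.0 and 64.5 FPKM in miR-431 libraries 5 to 8, against 43.4, 43.3, 33.9 and 32.9 FPKM in miR-LacZ libraries 1 to 4. The groups did not overlap, and the log2 difference was 0.70 (SE 0.111, limma adjusted p = 0.00148). Mbtps1 lies on chromosome 8 (chr8:122032051-122082661, mm9), as Mvd does, and with the neighbours removed it stood at 0.21 (limma adjusted p = 0.0913). Erlin2, a protein of the endoplasmic reticulum that takes part in degrading proteins there, fell to 31.1 ± 1.57 FPKM in miR-431, against 45.7 ± 2.56 FPKM in miR-LacZ libraries (−0.54, limma adjusted p = 0.000847). Prkaa2, a catalytic subunit of AMP-activated kinase, which inhibits Acaca, rose to 1.65 ± 0.409 FPKM in miR-431, against 0.501 ± 0.318 FPKM in miR-LacZ libraries (0.83, limma adjusted p = 0.0056). At this low level the size depends on the pseudocount, and on log2(FPKM + 0.01) the difference was 1.97. Prkaa2 met the level filter only through the miR-431 libraries, since every miR-LacZ value was below 1 FPKM (highest 0.856). Its call, counted among the 3 rises here, is therefore not independent of the filter.

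A list of further genes tied to LXR holds lipid genes, a small GTPase, the partner receptors Rxra and Rxrb and the corepressor Ncor1. It gave 4 rises among 7 tested in limma (57.1%, against 15.4% of all tested genes) and 0 falls (against 13.8%). At an unadjusted p below 0.05, limma gave 1 lower (14.3%, against 20.4%). The 4 were Apoe, Abca7, Arl4c and the partner receptor Rxrb (0.32, limma adjusted p = 0.0319), whose call was lost without miR-LacZ 2 or 4 or miR-431 7 (limma adjusted p from 0.0641 to 0.0677). Rxrb and the beta cell and neuroendocrine markers were named after their values were seen. Neither LXR receptor passed, nor did Abca1 or Abcg1, the classical LXR targets given above. Apoe, the apolipoprotein that carries cholesterol out of cells, had the largest difference of all the sterol genes named here. It stood at 73.1, 57.5, 133 and 76.2 FPKM in miR-431 libraries 5 to 8, against 21.8, 11.8, 12.8 and 4.71 FPKM in miR-LacZ libraries 1 to 4. Every miR-431 library was well above every miR-LacZ library, with miR-431 7 highest. The log2 difference of Apoe was 2.73 (SE 0.380, limma adjusted p = 0.000682, exact permutation p = 0.0286), and 2.76 (limma adjusted p = 0.00102) with the neighbours removed. Apoe is also a gene of hepatocytes and macrophages. The summed hepatocyte markers, given above, were lower in miR-431 libraries. The 6 leukocyte markers summed to between 0.796 and 1.62 FPKM in miR-431 libraries, against 0.578 to 1.21 FPKM in miR-LacZ libraries. Whether other cell types have a part in the Apoe difference was not tested. Abca7, a lipid transporter, had a log2 difference of 0.42 (limma adjusted p = 0.0116). Arl4c, the small GTPase, had one of 0.59 (limma adjusted p = 0.0490), which was lost without any 1 library other than miR-LacZ 4 (limma adjusted p from 0.0501 to 0.125).

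Of 11 tested sterol transport genes outside the 33, 3 rose in limma (27.3%, against 15.4% of all tested genes) and 0 fell (against 13.8%). At an unadjusted p below 0.05, limma gave 0 lower, against 20.4% of all tested genes. Gramd1a, which moves cholesterol from the plasma membrane to the endoplasmic reticulum, rose to 57.5 ± 17.0 FPKM in miR-431, against 32.1 ± 7.53 FPKM in miR-LacZ libraries (0.81, limma adjusted p = 0.0167). Tspo, a cholesterol-binding protein of the outer mitochondrial membrane, had a log2 difference of 0.55 (limma adjusted p = 0.0162). Vps13a, a bridge for lipids between membranes, had one of 0.40 (limma adjusted p = 0.0272), lost without miR-LacZ 2 or 3 or miR-431 5 or 7 (limma adjusted p from 0.0531 to 0.0751). Of 4 tested genes of sterol esters and oxysterols, 1 rose in limma (25%, against 15.4% of all tested genes) and 0 fell (against 13.8%). At an unadjusted p below 0.05, limma gave 1 lower (25%, against 20.4%). Soat1, the acyltransferase that stores cholesterol as ester, rose to 27.7 ± 1.26 FPKM in miR-431, against 19.2 ± 5.35 FPKM in miR-LacZ libraries (0.55, limma adjusted p = 0.0366). The call of Soat1 was lost without miR-LacZ 2 or without any 1 miR-431 library (limma adjusted p from 0.0565 to 0.0838) and with the neighbours removed (limma adjusted p = 0.0596).

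Of 12 further tested genes of the fatty acid arm, 1 rose in limma (8.33%, against 15.4% of all tested genes) and 0 fell (against 13.8%). At an unadjusted p below 0.05, limma gave 1 lower (8.33%, against 20.4%). Elovl6, which elongates saturated fatty acids and is a target of SREBP1, stood at 12.6, 17.3, 12.4 and 13.1 FPKM in miR-431 libraries 5 to 8, against 7.09, 7.98, 4.79 and 4.88 FPKM in miR-LacZ libraries 1 to 4. All 4 miR-431 values were above the miR-LacZ values, with a log2 difference of 1.06 (SE 0.164, limma adjusted p = 0.00121, exact permutation p = 0.0286). It passed with the neighbours removed (0.85, limma adjusted p = 0.00547), while Fasn, Acaca and Acly of the same arm did not pass.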

How the data were processed

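RNA from 8 libraries of N134 cells (4 miR-431, 4 miR-LacZ, grouped by their titles) was sequenced as paired reads of 51 bases from an Illumina TruSeq library, per the labels' protocols. Tools listed in the submitters' processing notes, without their roles, are TopHat2 2.0.11, Cufflinks 2.1.1, CASAVA 1.8.2 and cutadapt, on build mm9. The deposited values are FPKM per gene in a single table. FPKM keeps no counts, so no count test was run, depth is unknown, and intervals for counting error cannot be given. Cufflinks-type loci can span overlapping genes, and use of read strand is not given in the sources used here.

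The 11807 genes that reached 1 FPKM in 4 or more libraries were fitted in R 4.3.3 by limma 3.58.1, using its mean-variance trend and no covariate, on log2(FPKM + 1), a scale that understates changes of low genes. Calls were made at a Benjamini-Hochberg adjusted p below 0.05 over all tested genes. Exact permutation tests were two-sided over the 70 splits. The fit was tested on simulated data. Group values are means ± SD over 4 libraries.

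The members and the lists of other pathway genes and markers were chosen with earlier results of these data known. Members called or with groups that do not overlap are given library by library, and of other pathway genes those called, at most 3 a list by size; some items are not reported here. Of the 86 other pathway genes, 85 were in the table and 76 were tested. No 2 libraries held identical values. Correlations of log2 values were 0.970 to 0.991 within groups and 0.924 to 0.961 between groups. Alternatives changed the pseudocount, level filter, scaling and trend, left out each library, and left out or modelled libraries 1 and 5. Another removed the running median of 31 genes along the chromosome. Sequences are from RefSeq (GRCm38.p6) and GENCODE M21 (GRCm38), whose build differs from mm9, so members were matched to them by symbol. Windows and sites were searched with Python 3.11.15.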

Additional observations from a re-analysis of the deposited data

Results flagged for a closer look

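Among 50 genes, the 32 tested members and the 18 other genes that the rule for names selects, each group of 4 libraries was looked at for a library whose gap to the nearest of the others passed Dixon's 95% critical value, as a share of the group's range. Of 100 groups, 4 were flagged, and chance flags about 1 in 20 groups. Coq2 stood at 33.4 FPKM in miR-431 7, with the other miR-431 libraries at 27.6 to 27.9 FPKM (gap 0.95 of the range). Mylip stood at 14.4 FPKM in miR-431 5, with the others at 12.3 to 12.4 FPKM (0.942). Abca1 stood at 25.84 FPKM in miR-LacZ 1, with the others at 17.2 to 18.4 FPKM (0.830). Arl4c stood at 3.31 FPKM in miR-LacZ 4, with the others at 1.41 to 1.61 FPKM (0.864). All 4 were high values, in 4 different libraries.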

How the results depend on the processing

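No paired analysis was possible because the groups share no replicate number (5 to 8 for miR-431, 1 to 4 for miR-LacZ). The count of sterol genes called higher, 5, was 3 with no level filter (18903 genes tested) and 2 with the neighbours' median removed, which also left 2262 genes called in all, against 3454. The other pathway genes called lower, 4, were 2 with libraries 1 and 5 left out and 7 with a term for them. Leaving out 1 library gave 3 to 6 sterol genes called higher, 0 lower, a median of 0.033 to 0.31, 12 to 16 other pathway genes higher and 2 to 6 lower, and 2480 to 3350 genes called. The cause of these shifts was not tested. With no filter, the number of genes adjusted over and the fitted mean-variance trend changed together. Among the 23 genes that the rule for names selects, no difference changed sign under any alternative run. Over these genes and alternatives, 346 values kept their side of the threshold and 65 did not. Tm7sf2 and Scap passed in all 18 alternatives, Srebf2 in 17, Idi1 in 12 and Mvd in 5. Pseudocounts of 0.1 and 0.01, a filter of 5 FPKM, median ratio scaling, quantile normalization and a fit with no trend left each count within 1.5 times its value. Depth limits all low values to an unknown degree.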

Other observations

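The branch that turns farnesyl diphosphate into coenzyme Q, dolichol and protein prenyl groups was described by 11 tested genes. Of these, 1 rose (9.09%, against 15.4% of all tested genes) and 1 fell (9.09%, against 13.8%). The median log2 difference was −0.052. Coq2, the prenyltransferase that attaches the isoprenoid tail in coenzyme Q synthesis, stood at 27.6, 27.7, 33.4 and 27.9 FPKM in miR-431 libraries 5 to 8, against 19.8, 19.7, 20.6 and 20.6 FPKM in miR-LacZ libraries 1 to 4. The groups did not overlap, and its log2 difference was 0.51 (SE 0.0838, limma adjusted p = 0.00185), or 0.65 (limma adjusted p = 0.000908) with the neighbouring genes removed. Pdss1, a subunit of the synthase that builds that tail, fell to 5.67 ± 0.586 FPKM in miR-431, against 7.51 ± 1.13 FPKM in miR-LacZ libraries (SD, n = 4 each; −0.35, limma adjusted p = 0.0417). The call of Pdss1 was lost without miR-LacZ 2 or 4 or without any 1 miR-431 library (limma adjusted p from 0.0546 to 0.0961), and its locus overlaps that of Abi1 in the table.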
